A study of Homo sapiens with 6 samples.

Results

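The genes described here are 46 interferon-stimulated effector genes, the antiviral and regulatory genes at the end of the interferon pathway, measured in PANC1 cells treated with vehicle or gemcitabine. They were taken from a list of names, matched by Ensembl identifier to the gene table of the RNA-seq experiment, and all 46 were found among its 20461 genes. PANC1 is an established human pancreatic carcinoma line, and gemcitabine is a nucleoside analog that blocks DNA synthesis and is used as chemotherapy for pancreatic cancer. RNA-seq was carried out on 2 vehicle libraries (0.1% DMSO) and 2 gemcitabine libraries (50 nM), both at 48 h, and no genetic change is named for either condition. DNaseI-seq, which maps open chromatin by its sensitivity to DNaseI, was available as 1 vehicle and 1 gemcitabine library (50 nM) of the same line. No time is recorded for the DNaseI-seq libraries, and the study states that their conditions were those of RNA-seq. The question for these genes was which families were higher after gemcitabine and which were not.

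Interferons are secreted proteins that bind receptors on the cell surface, and the receptors act through the kinases JAK1, JAK2 and TYK2 on STAT factors. The complex ISGF3, which holds STAT2 and IRF9, binds a DNA element called the ISRE in the promoters of interferon-stimulated genes, and STAT dimers bind the GAS element. The same genes can also be switched on without interferon, by IRF factors downstream of sensors of foreign or misplaced RNA and DNA. The effectors act on viral RNA (IFIT and OAS families, EIF2AK2), on membranes (IFITM family, BST2), on vacuoles and viral particles (GBP and MX GTPases), and through the ubiquitin-like protein ISG15 and its ligases.

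Promoter sequences, 250 bases before to 50 bases after each start, were taken from RefSeq (GRCh38.p14) for 38 of the 46 genes. No such window was matched for IFIT2, OAS2, OASL, IFITM2, MX2, GBP2, USP18 and LAMP3. The ISRE core searched for was GAAA, any 2 bases and GAAA, on both strands, so that it also appears as TTTC, 2 bases and TTTC. The sequences below show it in neighbouring or related genes that did and did not rise. IFIT1 and IFIT3 rose and IFIT5 did not, IFI44 rose and IFI44L did not, ISG15, GBP1 and SAMD9 rose, and IFITM3 and BST2 are abundant genes that did not. Each is given on the strand of the gene, 5′ to 3′, with the core in capitals and its place on GRCh37, the build of the deposited files, found by exact match.
IFIT1 (chr10:91152265-91152298): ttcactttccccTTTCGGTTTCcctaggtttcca
IFIT3 (chr10:91092180-91092213): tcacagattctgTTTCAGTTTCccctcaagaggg
IFIT5 (chr10:91174268-91174301): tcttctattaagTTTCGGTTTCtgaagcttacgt
IFI44 (chr1:79115444-79115477): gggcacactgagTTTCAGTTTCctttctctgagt
IFI44L (chr1:79086048-79086081): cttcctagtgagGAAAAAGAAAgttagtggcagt
ISG15 (chr1:948758-948791): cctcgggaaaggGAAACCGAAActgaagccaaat
GBP1 (chr1:89530997-89531030): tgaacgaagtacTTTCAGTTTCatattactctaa
SAMD9 (chr7:92747407-92747440): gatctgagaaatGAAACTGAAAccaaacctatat
IFITM3 (chr11:320874-320907): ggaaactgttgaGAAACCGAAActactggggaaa
BST2 (chr19:17516548-17516581): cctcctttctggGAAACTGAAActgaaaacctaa

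The ISRE core was present in 28 of the 38 genes with a window (73.7%), against 4.38% of 27305 genes with windows of the same length. IFIT1 and IFIT5 held the same letters within the core, TTTCGGTTTC. The longer core, which overlaps the shorter one and has a C after it, was present in 21 of the 38 genes (55.3%, against 0.95% of all genes). The GAS core TTCNNNGAA was present in 11 (28.9%, against 9.38%), and the kB core, GGGA, any 2 bases and TTCC, in OAS3 alone (2.6%, against 1.97%). A match describes letters and not binding.

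The vehicle libraries of RNA-seq held 15153593 and 15766237 assigned fragments, and those of gemcitabine held 13194533 and 13275457, so that 3 fragments corresponded to 0.19 to 0.227 CPM, the unit of library-scaled counts used below. Keratins KRT7, KRT8 and KRT18 and vimentin (VIM) were abundant in all 4 libraries, while KRT19 and EPCAM were low. KRT19 was at 3.05 to 3.22 FPKM in vehicle and 5.83 to 6.91 FPKM in gemcitabine and was called higher (log2 fold change 1.13, adjusted p = 0.000645, edgeR), and EPCAM was at 2.09 to 4.29 FPKM and did not pass. Of 6 leukocyte markers, CD3E and LYZ were at 0 fragments in every library and PTPRC, CD14 and ITGAM had at most 9 in any. CD68, which is also made outside leukocytes, was higher after gemcitabine (log2 fold change 0.94, adjusted p = 6.41e-05, edgeR), and it carried nearly all of the summed leukocyte level of 10.7 to 10.9 FPKM in vehicle and 20.8 to 24.8 FPKM in gemcitabine. Of the markers of plasmacytoid dendritic cells, the main interferon producers of blood, LILRA4 was at 0 and CLEC4C had 1 fragment in 1 library. Of 3 fibroblast markers, LUM was higher (log2 fold change 0.77, adjusted p = 0.00374), DCN was not called (log2 fold change -0.23 on fragments, although its FPKM was 3.02 to 3.22 in vehicle and 5.02 to 6.30 in gemcitabine) and PDGFRA had at most 1 fragment in a library. The summed fibroblast level was 7.46 to 7.78 FPKM in vehicle and 14 to 14.5 FPKM in gemcitabine, and its part in the results was not tested.

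Gemcitabine raised 21 of the 46 effector genes and lowered none of them by all criteria. A gene was called where the quasi-likelihood test of edgeR gave an adjusted p under 0.05, its fold change was over 1.5, its mean was at least 0.1 FPKM in 1 condition, and its means differed by at least 1 FPKM. Testing was possible for 43 of them, which had 10 fragments or more in all, and among all 14854 tested genes 5.69% were called higher and 4.43% lower (10.1% in either direction). Of the 21, 14 were more than 2-fold higher, and IFIT1, IFIT2, IFIT3, OAS1, OASL and SAMD9L were more than 4-fold higher. The IFIT and OAS families held 5 of these 6, and all 3 GBP genes were called. Among the 6, OAS1 rested on few fragments, and SAMD9L rose less in mean FPKM (log2 ratio 1.22). The IFITM family and the MX GTPases had no called gene, but the intervals of the MX genes were wide. By adjusted p alone 25 genes were higher (18.5% of all tested genes were) and 3 were lower, IFITM3, EIF2AK2 and IFI16 (20.0% of all tested genes were). At an unadjusted p under 0.05 (edgeR), 25 were higher and 4 lower, while 7014 of all 14854 tested genes passed in either direction. DESeq2 and limma also called 0 genes lower by all criteria. The median log2 fold change over the 43 tested genes was 0.72, against 0.0068 over all tested genes. In bulk RNA, a higher level in every cell and a larger share of cells with the transcript cannot be told apart.

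**Figure D1:**
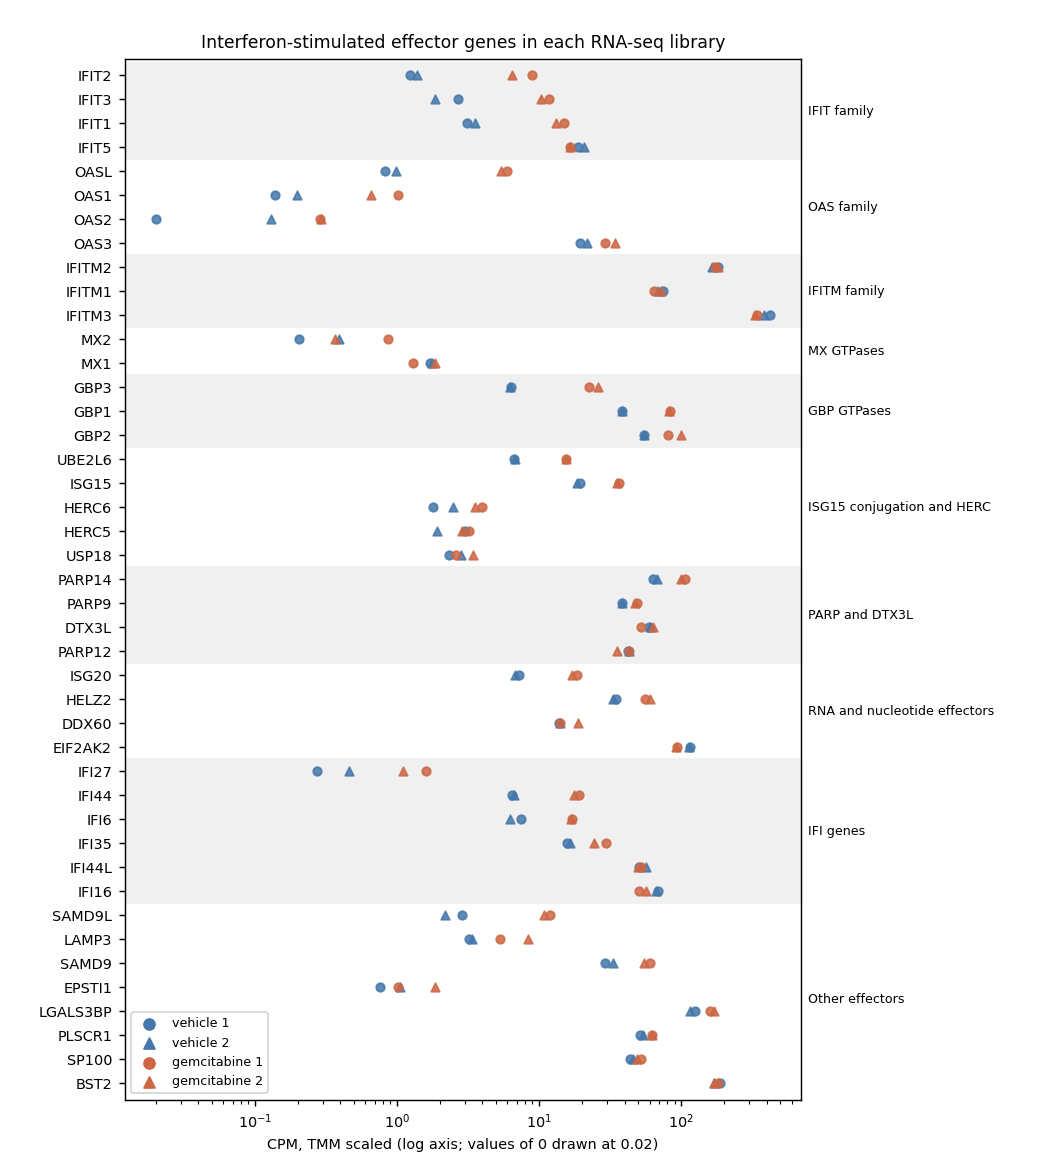
Each point is 1 RNA-seq library, with the 2 vehicle libraries in blue and the 2 gemcitabine libraries in orange, and the log x axis gives CPM after TMM scaling for the 43 tested genes, grouped by family. The orange points lie apart from and above the blue points for 28 genes, including IFIT1, IFIT2, IFIT3 and the GBP genes, while they overlap for IFITM1, IFITM2 and BST2.

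Libraries of the conditions did not overlap for 32 of the 43 tested genes. In 28 of these gemcitabine was the higher (35.0% of all tested genes were of this kind) and in 4 it was the lower (34.7% of all tested genes), namely IFIT5, IFITM3, EIF2AK2 and IFI16. Values per library are given below in CPM after TMM scaling, the scale of the test, and levels compared between genes are in FPKM, which divides by transcript length.

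The IFIT proteins bind viral RNA and block its translation. IFIT1 was at 3.10 and 3.55 CPM in vehicle and 15.1 and 13.1 in gemcitabine, a log2 fold change of 2.08 (SE 0.17, adjusted p = 7.18e-07, edgeR). IFIT2 went from 1.24 and 1.38 to 8.93 and 6.46 CPM (log2 fold change 2.55, SE 0.26, adjusted p = 4.59e-06, edgeR). IFIT3, which binds and stabilizes IFIT1, went from 2.68 and 1.84 to 11.7 and 10.4 CPM (log2 fold change 2.28, SE 0.21, adjusted p = 1.77e-06, edgeR). All 3 were low in vehicle and far above it in both gemcitabine libraries, and the fold changes of IFIT1, IFIT2 and IFIT3 had overlapping 95% intervals. IFIT5, the member of highest level in the family (8.88 FPKM in vehicle), was at 18.8 and 20.9 CPM in vehicle and 16.6 and 16.4 in gemcitabine. The gemcitabine libraries of IFIT5 were the lower ones, with a log2 fold change of -0.27 whose 95% interval ran from -0.50 to -0.03 and an adjusted p of 0.0693 (edgeR). IFIT5 lies 8081 bases from IFIT1 on chromosome 10, and its interval was apart from those of IFIT1, IFIT2 and IFIT3. Exons of IFIT2 and IFIT3 overlap annotated exons of the lipase gene LIPA, which had 991 and 1089 fragments in vehicle and 1124 and 1094 in gemcitabine (log2 fold change 0.21).

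The OAS enzymes make 2′-5′ oligoadenylate, the activator of RNase L, when they meet viral RNA, and OASL lacks that activity. OASL went from 0.826 and 0.985 to 5.91 and 5.43 CPM, the highest log2 fold change among the called genes (2.63, SE 0.28, adjusted p = 6.45e-06, edgeR). OAS3 was the member of highest level (3.53 FPKM in vehicle) and went from 19.5 and 21.9 to 29.0 and 34.0 CPM (log2 fold change 0.60, SE 0.11, adjusted p = 0.000477, edgeR). OAS1 rested on few fragments, 2 and 3 in vehicle and 14 and 9 in gemcitabine (log2 fold change 2.26, SE 0.64, adjusted p = 0.0123, edgeR). In all 3 genes both gemcitabine libraries were above both vehicle libraries. The ratio of mean FPKM of OAS1 was larger, at log2 3.78. The call of OAS1 was lost without vehicle replicate 1 (adjusted p = 0.0841), without vehicle replicate 2 (0.0590), without gemcitabine replicate 1 (0.0813) and with DESeq2 (0.121). OAS3 fell under the 1.5-fold criterion without vehicle replicate 1 (log2 fold change 0.53) or without gemcitabine replicate 2 (0.49). OAS2 had 0 and 2 fragments in vehicle and 4 in each gemcitabine library and did not pass (adjusted p = 0.152), so that a change was not detectable at this depth. OAS1, OAS2 and OAS3 lie in a row on chromosome 12, where the intervals of OAS1 and OAS3 did not overlap.

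The GBP GTPases coat vacuoles that hold bacteria or parasites and are known chiefly as targets of interferon gamma. All 3 measured members were called. GBP3 went from 6.33 and 6.24 to 22.4 and 26.1 CPM (log2 fold change 1.95, SE 0.13, adjusted p = 1.48e-07, edgeR). GBP1 was at 38.1 CPM in both vehicle libraries and at 83.0 and 82.2 in gemcitabine (log2 fold change 1.12, SE 0.073, adjusted p = 1.07e-07, edgeR). GBP2, the member of highest level (25.5 FPKM in vehicle), went from 54.6 and 54.5 to 80.9 and 99.1 CPM (log2 fold change 0.72, SE 0.089, adjusted p = 2.12e-05, edgeR). The vehicle libraries lay close together in each gene, and the 95% intervals of the 3 fold changes did not overlap one another. Without gemcitabine replicate 2, GBP2 stood at a log2 fold change of 0.57 and was no longer over 1.5-fold.

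**Figure D2:**
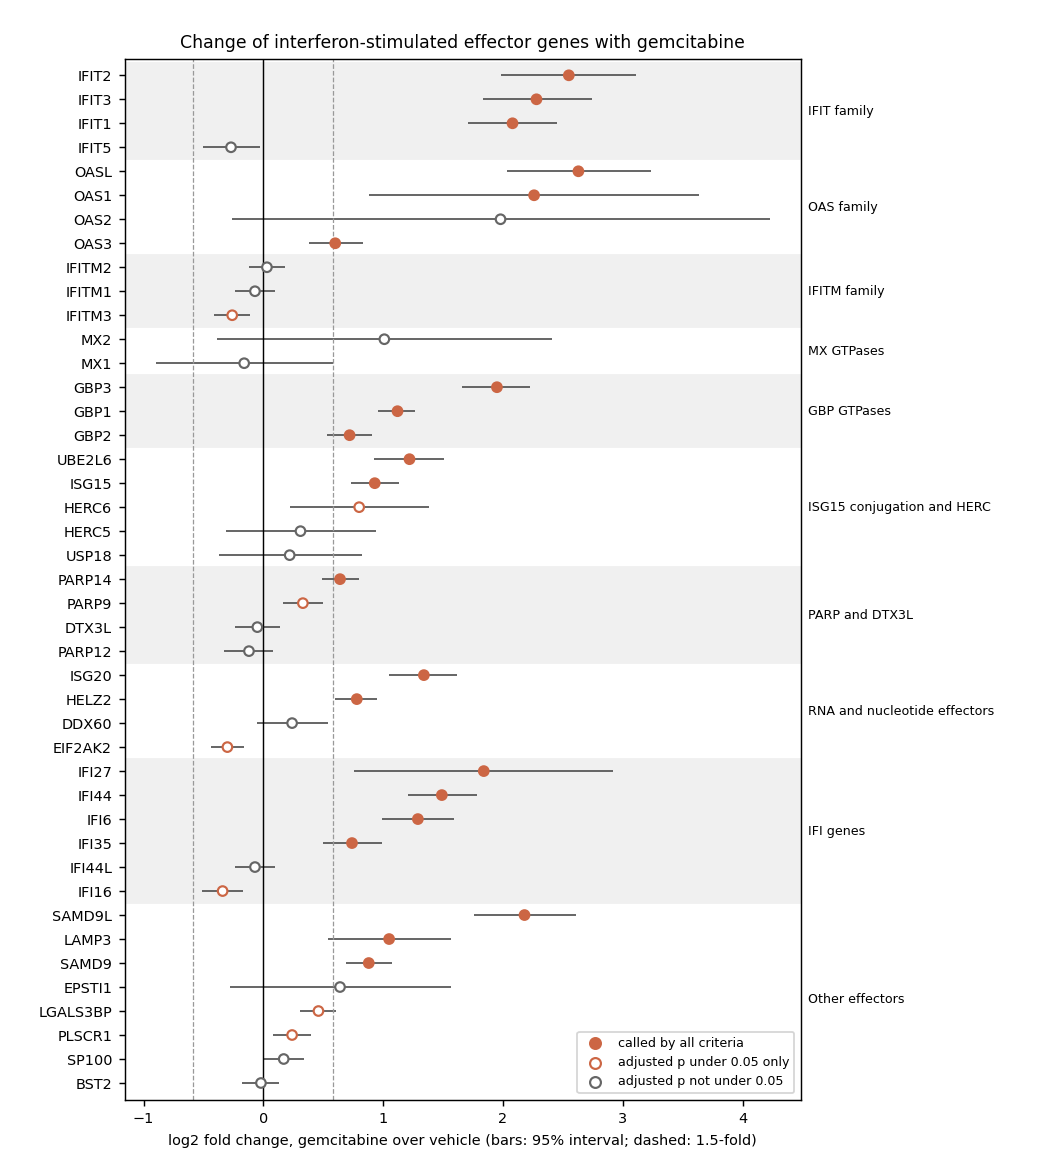
Log2 fold changes of gemcitabine over vehicle for the 43 tested genes from edgeR, with bars for the 95% interval and dashed lines at 1.5-fold, grouped by family. Filled points mark the 21 genes called by all criteria, all to the right of 0, with the 3 called IFIT genes above 2 and the IFITM genes between -0.26 and 0.03.

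The IFITM proteins sit in membranes and hinder virus entry. They were among the most abundant of the effector genes in vehicle, at 98.6 FPKM for IFITM1, 359 FPKM for IFITM2 and 600 FPKM for IFITM3. IFITM3 went from 423 and 381 to 343 and 329 CPM, a small fall that passed the adjusted p but not the fold criterion (log2 fold change -0.26, SE 0.071, adjusted p = 0.00992, edgeR). That call was lost without vehicle replicate 1 (log2 fold change -0.17, adjusted p = 0.258), without vehicle replicate 2 (-0.32, 0.0574) and when library totals replaced TMM scaling (-0.15, 0.0971). The libraries overlapped between conditions for IFITM1 (log2 fold change -0.07, 95% interval -0.24 to 0.10) and IFITM2 (0.03, -0.12 to 0.18), intervals that lie within 1.5-fold of 0. Fragments of IFITM1 and IFITM2 were fractions that summed to whole numbers in each library (3732, 3554, 3302 and 3458), so reads were shared between the pair and their separate values are uncertain.

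The MX proteins are dynamin-like GTPases that trap viral nucleocapsids, and MX1 is a usual marker of interferon exposure. MX1, the higher of the pair at 1.19 FPKM in vehicle, was at 1.72 and 1.77 CPM in vehicle and 1.30 and 1.84 in gemcitabine. Its libraries overlapped, with a log2 fold change of -0.16 (SE 0.34, adjusted p = 0.753, edgeR) and an interval from -0.90 to 0.58. MX2 had 3 and 6 fragments in vehicle and 12 and 5 in gemcitabine, also overlapping (adjusted p = 0.243, edgeR).

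ISG15 is a ubiquitin-like protein joined to targets by the E2 enzyme UBE2L6 and the ligase HERC5, and removed by the protease USP18. ISG15 went from 19.3 and 18.6 to 36.8 and 35.4 CPM (log2 fold change 0.93, SE 0.093, adjusted p = 3.41e-06, edgeR), and was the member of highest level at 33.2 FPKM in vehicle. UBE2L6 went from 6.68 and 6.76 to 15.6 in both gemcitabine libraries (log2 fold change 1.22, SE 0.14, adjusted p = 9.16e-06, edgeR). For both genes the replicates differed little and the conditions stood apart. HERC6 went from 1.79 and 2.50 to 3.96 and 3.52 CPM (log2 fold change 0.80, SE 0.27, adjusted p = 0.0313, edgeR), but its means differed by less than 1 FPKM. HERC6 did not pass without vehicle replicate 1 (adjusted p = 0.241), without vehicle replicate 2 (0.0730), without gemcitabine replicate 1 (0.0739) or with DESeq2 (0.173). HERC5 (log2 fold change 0.31, 95% interval -0.31 to 0.94) and USP18 (0.22, -0.37 to 0.82) overlapped between conditions. The ratio of mean FPKM for HERC5 lay outside that interval (log2 1.14), and its log2 fold change was 0.02 without vehicle replicate 2 and 0.69 without vehicle replicate 1. ISG15 and UBE2L6 were thus called while HERC5 and USP18 were not, and a difference between these genes was not tested.

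PARP9, PARP12 and PARP14 belong to the ADP-ribosyltransferase family, and DTX3L is the ubiquitin ligase that pairs with PARP9. PARP14 went from 63.7 and 68.2 to 106 and 100 CPM and was the only one of the 4 called by all criteria (log2 fold change 0.64, SE 0.071, adjusted p = 7.81e-06, edgeR). On log2(FPKM + 1) in limma PARP14 was not called. PARP9 went from 38.1 and 38.3 to 48.6 and 47.7 CPM (log2 fold change 0.33, SE 0.079, adjusted p = 0.00393, edgeR), under 1.5-fold. Its adjusted p was 0.0683 without vehicle replicate 1 and 0.0677 without vehicle replicate 2. PARP12, the member of highest level (21.2 FPKM in vehicle), was at 42.5 and 43.1 CPM in vehicle and 43.3 and 35.2 in gemcitabine, which overlapped (log2 fold change -0.12, adjusted p = 0.333, edgeR). It fell by adjusted p only without gemcitabine replicate 1 (log2 fold change -0.28, adjusted p = 0.0109). DTX3L also overlapped (log2 fold change -0.05, 95% interval -0.24 to 0.14), and it passed as lower only without gemcitabine replicate 2 (-0.20, adjusted p = 0.0407). DTX3L starts head to head with PARP9 and shares exonic sequence with it, and the intervals of the pair did not overlap.

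Among the effectors on RNA and nucleotides, ISG20, a 3′ exonuclease, went from 7.29 and 6.83 to 18.6 and 17.1 CPM (log2 fold change 1.34, SE 0.13, adjusted p = 3.46e-06, edgeR). HELZ2, a helicase, went from 34.7 and 33.2 to 55.8 and 60.6 CPM (log2 fold change 0.78, SE 0.082, adjusted p = 5.31e-06, edgeR). Both genes stood clear of vehicle in both gemcitabine libraries. EIF2AK2, the kinase PKR that stops translation, was the member of highest mean level in vehicle (20.9 FPKM) and went from 115 and 114 to 94.0 and 92.2 CPM (log2 fold change -0.30, SE 0.065, adjusted p = 0.00239, edgeR). The ratio of its mean FPKM went the other way (log2 0.12), and the adjusted p was 0.0654 without vehicle replicate 1 and 0.0639 without vehicle replicate 2. EIF2AK2 exons also overlap GPATCH11 (log2 fold change 0.12, adjusted p = 0.274, edgeR). DDX60, a helicase, was at 13.8 and 14.1 CPM in vehicle and 14.1 and 18.9 in gemcitabine, and only without gemcitabine replicate 1 did it pass (adjusted p = 0.00393, against 0.183 with all libraries). RSAD2, the viperin gene, and its neighbour CMPK2 had 4 and 2 fragments over all libraries and were not tested, although RSAD2 is among the genes interferon induces most strongly in many cells.

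Of the IFI genes, named only for their induction by interferon, 4 of 6 were called. IFI44 went from 6.47 and 6.63 to 19.2 and 17.7 CPM (log2 fold change 1.49, SE 0.13, adjusted p = 1.35e-06, edgeR). IFI6 went from 7.50 and 6.30 to 17.0 and 16.7 CPM (log2 fold change 1.29, SE 0.14, adjusted p = 6.68e-06, edgeR). IFI35 went from 15.8 and 16.5 to 29.7 and 24.3 CPM (log2 fold change 0.74, SE 0.12, adjusted p = 0.000159, edgeR). In these 3 genes the conditions were well apart. IFI27, a mitochondrial protein, rested on 4 and 7 fragments in vehicle and 22 and 15 in gemcitabine (log2 fold change 1.84, SE 0.50, adjusted p = 0.0098, edgeR). The ratio of mean FPKM of IFI27 was larger, at log2 2.94. Its call was lost without vehicle replicate 1 (adjusted p = 0.0960), without gemcitabine replicate 1 (0.0528) and with DESeq2 (0.0877). IFI44L, which lies 3651 bases from IFI44, was at 50.7 and 56.5 CPM in vehicle and 52.4 and 49.9 in gemcitabine, which overlapped (log2 fold change -0.07, adjusted p = 0.543, edgeR). The intervals of IFI44 and IFI44L were apart. IFI16, a DNA sensor and the member of highest level in vehicle (31.1 FPKM), went from 68.9 and 66.4 to 50.2 and 56.8 CPM (log2 fold change -0.34, SE 0.079, adjusted p = 0.00371, edgeR). That fall did not reach 1.5-fold, and its adjusted p was 0.0931 without vehicle replicate 1 and 0.0603 without vehicle replicate 2.

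The remaining 9 genes have varied roles. SAMD9L, an inhibitor of translation and growth, went from 2.89 and 2.17 to 12 and 10.9 CPM (log2 fold change 2.18, SE 0.20, adjusted p = 1.46e-06, edgeR), while its mean FPKM rose by a smaller log2 ratio of 1.22. Without vehicle replicate 2 or gemcitabine replicate 2 its means differed by less than 1 FPKM, though its log2 fold change was 2.00 and 2.25. Its paralog and neighbour SAMD9 went from 29.3 and 33.0 to 60.0 and 54.5 CPM (log2 fold change 0.88, SE 0.089, adjusted p = 3.71e-06, edgeR), with an interval below that of SAMD9L. LAMP3, a lysosomal membrane protein, went from 3.23 and 3.35 to 5.33 and 8.37 CPM (log2 fold change 1.05, SE 0.24, adjusted p = 0.00302, edgeR). The LAMP3 gemcitabine libraries were the less alike, and its adjusted p was 0.0728 without vehicle replicate 1 and 0.0684 without vehicle replicate 2.

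Both abundant secreted or membrane-linked genes LGALS3BP and PLSCR1 rose by less than 1.5-fold. LGALS3BP, a secreted glycoprotein, went from 125 and 116 to 160 and 171 CPM (log2 fold change 0.46, SE 0.070, adjusted p = 0.000133, edgeR). PLSCR1, a phospholipid scramblase, went from 51.8 and 53.8 to 62.1 and 62.6 CPM (log2 fold change 0.24, SE 0.073, adjusted p = 0.0175, edgeR). The conditions did not overlap in either gene, but PLSCR1 had an adjusted p of 0.165 without vehicle replicate 1, 0.0977 without vehicle replicate 2 and 0.0888 with DESeq2. BST2, the tetherin that holds virus particles at the cell surface, had the highest level of these 9 at 447 FPKM in vehicle, and was at 187 and 171 CPM in vehicle and 183 and 170 in gemcitabine. Its libraries overlapped, and the interval of its log2 fold change ran from -0.18 to 0.13. SP100, a nuclear body protein, did not pass (log2 fold change 0.17, adjusted p = 0.108), except without gemcitabine replicate 2 (0.22, adjusted p = 0.0298) and with library totals. EPSTI1 had between 11 and 25 fragments a library and overlapped (adjusted p = 0.263), and XAF1, which promotes cell death, had 3 fragments in all and was not tested.

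The calls were also grouped by level, as the mean over the 4 libraries, which includes the gemcitabine values and so moves with the change itself. Of the 16 genes with a mean of 1 to 10 FPKM over the 4 libraries 11 were called higher (13.16% of all tested genes at that level were), and of the 16 at 10 to 50 FPKM 9 were called (4.99%). Of the 7 genes at 50 FPKM and over, ISG15 alone was called (1.68%), which was at 33.2 FPKM in vehicle, and the others were BST2, LGALS3BP, PLSCR1 and the IFITM genes. None of the 7 genes under 1 FPKM by this mean was called, of which 4 were tested (1.18% of all tested genes at that level were called higher). A gene at that level can hardly meet the required difference of 1 FPKM between means. By the vehicle level alone 14 genes were under 1 FPKM, of which 11 were tested and 6 were called (IFIT2, IFIT3, OAS1, OASL, IFI27 and SAMD9L). The share called among all tested genes at that vehicle level was not determined, so this count has no background beside it. Of the 15 tested genes with an adjusted p not under 0.05, 9 had a 95% interval within 1.5-fold of no change (IFIT5, IFITM1, IFITM2, PARP12, DTX3L, DDX60, IFI44L, BST2 and SP100). The other 6, among them OAS2, MX1 and MX2, had wider intervals.

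**Figure D3:**
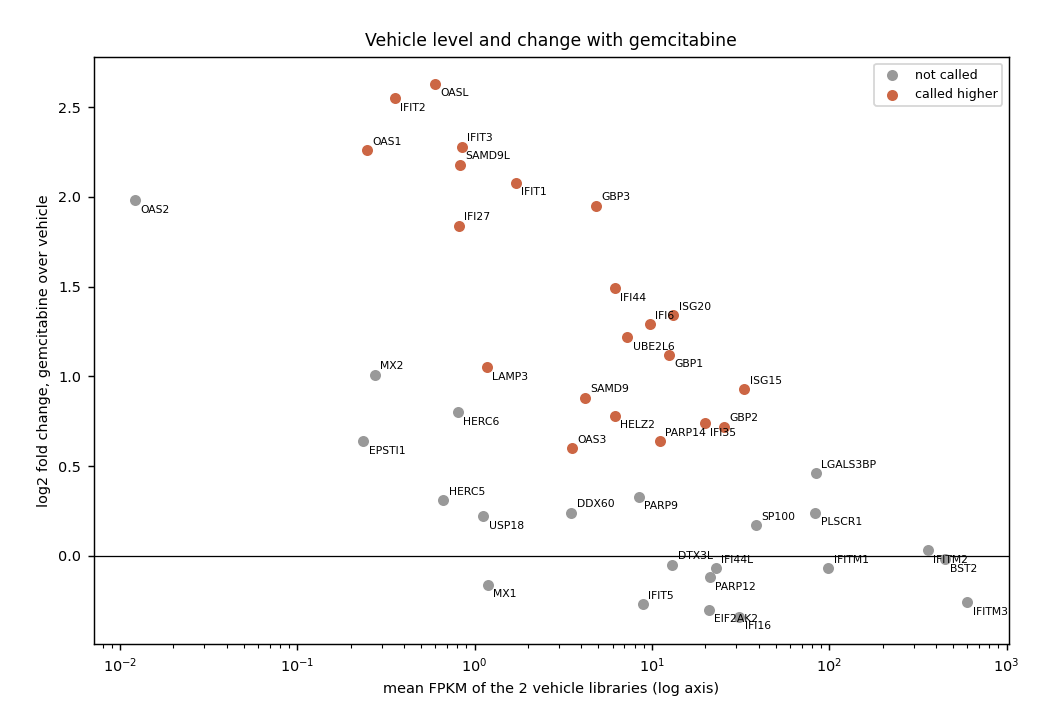
The log x axis gives the mean FPKM of the 2 vehicle libraries and the y axis the log2 fold change from edgeR, with 1 point per tested gene, orange where called higher. Called genes lie between 0.246 and 33.2 FPKM in vehicle, and IFITM3 at 600 FPKM and BST2 at 447 FPKM lie near or below 0.

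Genes next to each other on a chromosome did not always change alike. Of 20 pairs of effector genes within 100 kb, 19 had both genes tested, and in 8 both were called, in 5 only 1 was called and in 6 neither was. The 95% intervals of the fold changes did not overlap in 9 of the 19 pairs. Several pairs share a gene and so are not independent. Such counts were not determined for neighbouring pairs among all tested genes, so these have no background beside them. Of the genes with an ISRE core in the promoter, 27 were tested, 12 were called higher and the median log2 fold change was 0.46. Of the 8 tested genes with a window and no core, 5 were called (OAS1, UBE2L6, HELZ2, IFI35 and SAMD9L), with a median of 0.79. The 8 genes with no window included 4 called genes, with a median of 1.03. These groups were not tested against each other, and the shares called among all tested genes with and without a core were not determined.

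The rest of the pathway was read from a list of 35 genes. Of the 26 tested, 8 were called higher and 0 lower (5.69% and 4.43% of all tested genes were), and by adjusted p alone 15 were higher and 2 lower (18.5% and 20.0% of all tested genes were), SOCS3 (log2 fold change -0.32) and TBK1 (-0.24). Among the factors, IRF1 went from 126 and 168 to 391 and 345 fragments (log2 fold change 1.44, SE 0.13, adjusted p = 1.29e-06, edgeR). IRF7 went from 31 and 40 to 87 and 84 fragments (log2 fold change 1.38, SE 0.23, adjusted p = 0.000273, edgeR). Both of these IRF genes can themselves be induced by interferon. The ISGF3 subunits STAT2 (1.02, SE 0.086) and IRF9 (1.01, SE 0.19) rose by similar log2 fold changes. Of the sensors and adaptors, RIGI, the RNA sensor RIG-I, rose by a log2 fold change of 1.43, STING1, the adaptor downstream of cGAS, by 1.17, and TLR3, the endosomal RNA sensor, by 0.88. CGAS itself did not pass (-0.29, adjusted p = 0.0533, edgeR). SOCS1, a feedback inhibitor, was called on 20 and 14 fragments in vehicle and 39 and 35 in gemcitabine.

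None of the 9 interferon genes in the list was seen to rise, and other interferon genes were not read. IFNB1, IFNK, IFNL1, IFNL2, IFNL3 and IFNG had 0 fragments in all 4 libraries, which allows up to 0.19 to 0.227 CPM in a library. IFNA1 had 1 and 3 fragments in vehicle and 1 and 2 in gemcitabine, and IFNA2 had 1 fragment in 1 vehicle library. IFNE was the only ligand tested, at 24 and 27 fragments in vehicle and 24 and 12 in gemcitabine (adjusted p = 0.459, edgeR). The type I receptor gene IFNAR1 was higher by adjusted p with a log2 fold change of 0.27, and IFNAR2 was at -0.05 and did not pass. These libraries were taken at 48 h only, so earlier transcripts were not measured.

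**Figure D4:**
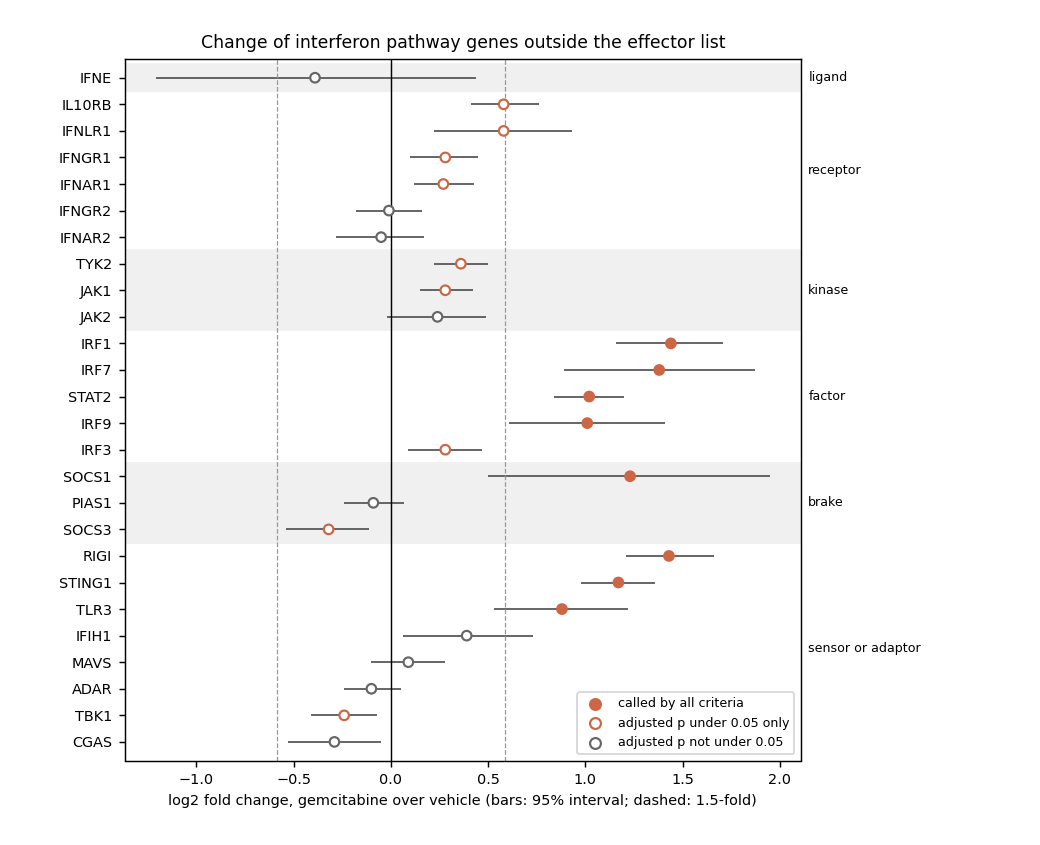
Log2 fold changes of gemcitabine over vehicle for the 26 tested interferon pathway genes outside the effector list, from edgeR, with 95% intervals as bars and dashed lines at 1.5-fold. The 8 filled points, called by all criteria, are IRF1, IRF7, STAT2, IRF9, SOCS1, RIGI, STING1 and TLR3, and TBK1 at -0.24 and SOCS3 at -0.32 lie to the left of 0.

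The chromatin data gave few peaks at these genes. The authors called 9606 peaks in vehicle and 10695 in gemcitabine, and with 1 library per condition no difference could be tested. In vehicle 6 of the 46 genes had a peak within 1000 bases of an annotated start (13.0%, 95% Wilson interval 6.12 to 25.7%), against 28.4% of all tested genes. In gemcitabine 10 did (21.7%, 12.3 to 35.6%), against 32.8%. These intervals cover counting error only, and they treat the genes of a chosen list as independent draws. The same 46 genes enter both counts, with 4 having a peak in both lists, 2 in vehicle only and 6 in gemcitabine only. The intervals therefore compare neither the conditions nor the list with all tested genes.

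BST2, which was not called in RNA, had the strongest peak of these genes in both lists, with scores of 130.35 in vehicle and 186.28 in gemcitabine. Both BST2 peaks covered the ISRE core printed above. IFIT3 also had a peak over its upstream start in both lists (scores 73.81 and 59.17), and both covered ISRE cores there. PLSCR1, ISG20 and the start shared by PARP9 and DTX3L had a peak over an ISRE core in gemcitabine and none there in vehicle. For ISG15 the vehicle peak (score 60.16) covered the printed ISRE core, and the gemcitabine peak lay at a different annotated start further upstream. The listed peaks of PARP9 also lay at different starts in the lists. IFIT2 and SP100 had a peak in vehicle only, and OAS1, HERC5 and EPSTI1 in gemcitabine only, the OAS1 and EPSTI1 peaks lying 736 and 741 bases from a start. All peaks but those of BST2 scored under 100, near the minimum of 50 in each list, so absence from a list says little. IFIT1, the GBP genes, OASL and SAMD9L had no peak near a start in either list. Of the 12 genes with a peak in either list, all tested, 5 were called higher in RNA, and of the 31 tested genes with none 16 were. The shares called among all tested genes with and without a peak were not determined, and the split was not tested.

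**Figure D5:**
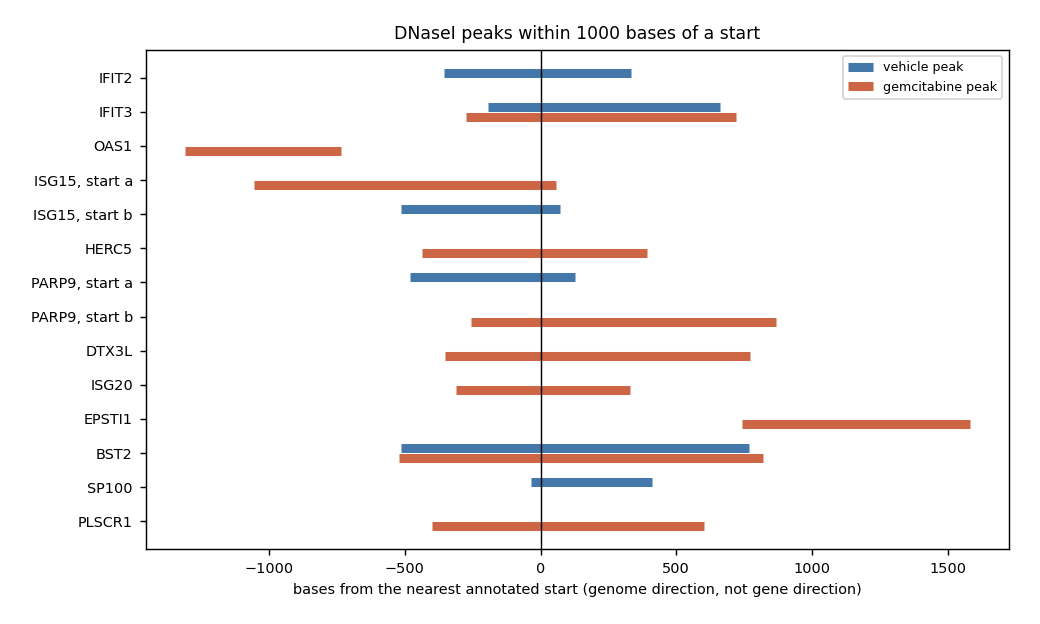
Bars show DNaseI peaks within 1000 bases of an annotated start, in bases from the nearest start, blue for the vehicle library and orange for the gemcitabine library. BST2 and IFIT3 have peaks over the same start in both, and ISG15 and PARP9 have peaks at different starts, drawn on separate lines.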

How the data were processed

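RNA-seq was measured in 2 vehicle and 2 gemcitabine libraries and DNaseI-seq in 1 of each. The authors aligned RNA-seq reads to hg19 with TopHat2 2.0.8 and ran Cuffdiff 2.0.2 on Gencode 15 genes; the deposited table gives expected counts, the estimated fragments of each gene in each library (86.78% of values whole), and FPKM, which the authors obtained from Cuffdiff. For DNaseI-seq the deposited peak lists give a score from MACS at a p-value of 1e-05 in each condition. The study describes the RNA-seq libraries of a condition as biological replicates. Conditions came from the sample labels and the study's methods. The table's library index cannot be tied to the labels' replicate numbers, so replicate numbers only tell libraries apart.

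Estimated counts were rounded, scaled by TMM (factors 0.959 to 1.05) and tested with edgeR 4.0.16 (R 4.3.3) where a gene had 10 fragments or more in all, with Benjamini-Hochberg adjustment over all 14854 tested genes. Cuffdiff itself was not run. The test was checked on simulated counts, which had the same spread for every gene and in both conditions. Changed genes were drawn only above a minimum level. The check therefore does not cover changes in genes of very few fragments or an unequal spread of the replicate pairs. The members and lists were chosen with earlier results of these data known. Every member is accounted for by role. Values in each library are given for called members, those with an adjusted p under 0.05 and the member of highest mean FPKM in vehicle in each family. Some genes of the pathway and marker lists are not reported here. Overlapping genes were named after their values were seen. DESeq2 1.42.0 and limma 3.58.1, other scalings and filters, and leaving out each library were the alternatives. Annotated starts came from Gencode 44 on GRCh37. Wilson intervals are at 95%.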

Additional observations from a re-analysis of the deposited data

How the results depend on the processing

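Of the 21 called members, 21 remained called with DESeq2-type size factors, with library totals and without a filter on low counts, 20 with edgeR's filterByExpr, 19 with DESeq2, 20 and 19 with limma on log2(FPKM + 1) and log2(FPKM + 0.1), and 20 at an adjusted p under 0.01. Leaving out 1 library gave 17 to 19 members called higher, and 0 to 4 members lower by adjusted p (0 without vehicle replicate 1 or vehicle replicate 2), 6 to 9 pathway genes called, and a median log2 fold change of 0.63 to 0.74. Limma on log2(FPKM + 1) without a filter called 0 members higher, 0 members by adjusted p in either direction and 0 pathway genes. There 0 of all 17783 genes passed the adjusted p while 4689 had an unadjusted p under 0.05, among them 27 members, all higher. Members lower by adjusted p were 0 with limma at either pseudocount. The median log2 fold change of the members was 0.83 with library totals (0.117 for all genes), 0.65 with filterByExpr, 0.56 with limma on log2(FPKM + 1) and 0.52 without its filter. The cause was not tested. With 1 library left out, the spread between replicates came from the pair of the other condition alone. The gemcitabine pair differed more than the vehicle pair (mean chi-square per gene against counting noise 5.16 and 2.17). An adjusted p without a vehicle library is therefore not comparable with one without a gemcitabine library. Peaks scoring at least 100 left 1 member in each list, and the ISRE core on the strand of the gene alone was in 18 members.

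IFITM1, IFITM2, MX1, PARP12, DTX3L, IFI44L and BST2, none of which passed the adjusted p, changed sign under some alternatives, and so did EIF2AK2, which passed as lower on fragments and was higher on FPKM. With library totals the log2 fold changes were 0.04 for IFITM1, 0.06 for DTX3L, 0.04 for IFI44L and 0.09 for BST2. With limma at either pseudocount and without a filter they were 0.05 for IFITM1, 0.11 for EIF2AK2, 0.17 to 0.18 for DTX3L, and 0.18 for IFI44L and BST2. With 1 library left out they ran from -0.15 to 0.01 for IFITM1, -0.03 to 0.11 for IFITM2, -0.43 to 0.07 for MX1, -0.28 to 0.02 for PARP12, -0.20 to 0.08 for DTX3L, -0.14 to 0.02 for IFI44L and -0.08 to 0.05 for BST2. No paired analysis was possible because the columns carry no replicate number that can be tied to the labels, and the replicate block was not run. Depth limits OAS1, OAS2, IFI27, MX2 and the untested RSAD2, CMPK2 and XAF1.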
